A study of Caenorhabditis elegans with 119 samples.

Results

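A pair of ageing control series of the nematode Caenorhabditis elegans, called trial 2 and trial 3 in the labels, were set against each other at equal age. They comprise 40 RNA-seq libraries, 20 in each trial, of a study of sulforaphane and lifespan that holds 79 other libraries, and were taken as all columns of the additional control table, split by the trial given in each label. Each trial holds 4 libraries at each of 5 adult ages, day 2, 4, 8, 12 and 16. All 40 come from whole wild-type N2 worms, collected as pools of about 50 worms, grown at 20 °C and 80% relative humidity on E. coli OP50-1. From day 1 of adulthood every worm was kept on plates with 51 µM FUdR, a nucleotide analogue that stops offspring from being produced, and 0.25% DMSO, the solvent of the compound tested elsewhere in the study. The labels call the replicates biological, aged and collected in tandem, and do not say what separates the trials. Anything that differed between them, from worm stock to library preparation, therefore cannot be told apart. The comparison asks which genes differ between the trials at the same age, and for which genes the course from day 2 to day 16 differs.

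An adult hermaphrodite worm is a small set of tissues that do not divide, around a germline that does. Its intestine digests bacteria, stores fat and secretes yolk proteins (vitellogenins) for the oocytes, its hypodermis secretes the collagens of the cuticle, and its mitochondria carry their own small genome for a handful of respiratory chain subunits. Transcripts of yolk, of cuticle and of intestinal enzymes are known to decline through adult life, and those of some stress and pathogen responses to rise.

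Library totals were 1071727 to 8611922 counts in trial 2 and 1835327 to 4956658 in trial 3. At day 2 they were 5213290 to 8134632 in trial 2 and 2294608 to 4956658 in trial 3. At day 4 they were 6017331 to 8611922 and 2850875 to 3638970, and at day 12 3838072 to 7608131 and 2711402 to 3818495. At each of these ages the totals did not overlap (exact permutation p = 0.0286, adjusted p = 0.0408 over 40 tests). At days 8 and 16 they overlapped. The part of depth in the numbers of genes called by age was not tested. Nuclear ribosomal RNA took 1.3 to 11.204% of counts in trial 2 and 3.66 to 16.7% in trial 3. At day 2 these shares did not overlap, at 1.70 to 7.10% and 7.39 to 15.5% (exact two-sided permutation p = 0.0286; adjusted p = 0.0408 over 40 tests of library measures), and at the other ages they overlapped. The part of this share in the day 2 results was not tested. No 2 libraries of a group were copies of each other: in the 60 pairs of replicates the chi-square of the counts was 2.21 to 42.8 times its degrees of freedom. Marker lists fitted the whole-worm label, since all 19 intestinal, all 26 muscle and all 34 oocyte, eggshell and germline markers passed the filter on low counts, together with 17 of 21 neuronal and 26 of 66 sperm markers. In pools of whole worms fewer cells of a type and less RNA per cell cannot be told apart.

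Averaged over the 5 ages, 6691 of 11778 genes tested differed between the trials (56.8%), 3480 higher in trial 3 (29.5%) and 3211 lower (27.3%), by edgeR's quasi-likelihood test with Benjamini-Hochberg adjusted p under 0.05. Most of these differences were under 2-fold, since 452 of the 6691 genes called differed at least 2-fold. Over all 11778 genes tested, called or not, the median absolute difference was 0.31 on the log2 scale. Each trial is a single series, so the p-values here and below rest on the spread between libraries of the same trial and age. They do not measure how far repeated trials would vary. The differences were most numerous in young adults, with 4820 genes called at day 2 (40.9%) and 4784 at day 4 (40.6%), against 2546 at day 8 (21.6%), 2819 at day 12 (23.9%) and 3361 at day 16 (28.5%). At all 5 ages, with 1 sign, 993 genes were called, 321 of them higher in trial 3 and 672 lower, and 3862 genes were called at no age. The 4 libraries of one trial did not overlap the 4 of the other for 38.4% of genes at day 2, 42.7% at day 4, 19% at day 8, 25.6% at day 12 and 22.4% at day 16, the background for the separations given below.

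Ageing left a larger mark than the trial. Of the variance of log2 CPM (counts per 1000000 counts of scaled library size) over all genes, 56.6% lay between ages, 9.08% between trials, 8.01% in the combination of trial and age, and 26.3% between replicates. These shares are not scaled for the number of levels, 5 ages against a pair of trials. The first principal component (45.9% of the variance) followed age in both trials. The second (9.56%) was positive in all 20 libraries of trial 2 and negative in all 20 of trial 3.

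**Figure D1:**
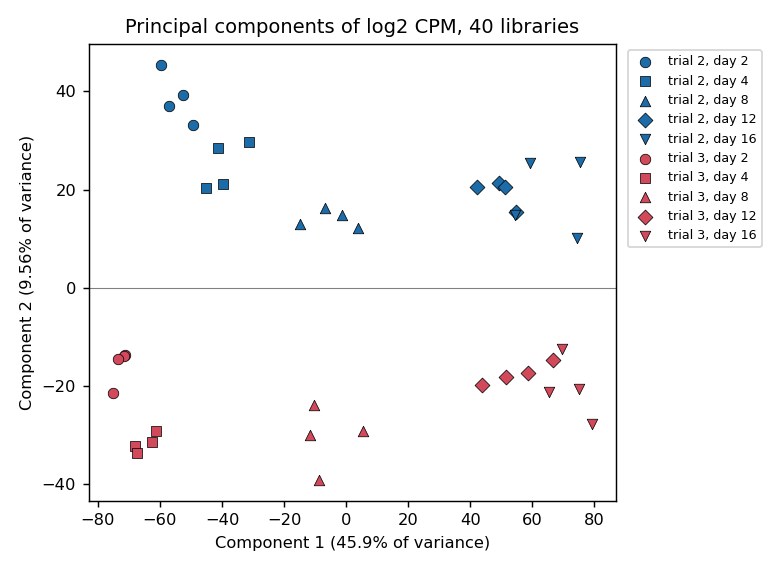
Principal components of log2 CPM over 11778 genes, 1 point per library, with component 1 (45.9% of the variance) on the x axis and component 2 (9.56%) on the y axis, both in arbitrary units. Marker shapes give the age and colours the trial. Age runs from left to right in both trials, and the trials lie on either side of 0 on component 2 at every age.

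The trial difference was graded by transcript length. Genes were ordered by summed exon length and split into 5 groups of equal size. In the shortest group (21 to 838 bases) the median log2 difference was 0.39, and 56.5% of genes were higher in trial 3 against 4.67% lower. In the longest group (2453 to 56044 bases) the median was -0.40, with 3.01% of genes higher and 72.8% lower. The 3 groups between them lay in order, at median differences of 0.21, 0.09 and -0.07, and the order was the same at every age. Protein-coding genes of the nuclear genome with 2453 or more exon bases took 31.7 to 43.5% of such counts in trial 2 and 26.1 to 33.8% in trial 3. At each age these shares did not overlap between the trials (exact two-sided permutation p = 0.0286, the smallest that 4 against 4 libraries can give; adjusted p = 0.0408 over 40 tests of library measures). With the length trend of each library removed, an alternative chosen after the data were seen, 5100 genes differed on average (2730 higher, 2370 lower), and 3769 genes were called with the same sign with and without the trend and 326 with opposite signs. Over all genes the shares called higher and lower were then 23.2% and 20.1% on average, 14.1% and 12% at day 2, 14.3% and 11.5% at day 4, 5.03% and 4.44% at day 8, and 9% and 9.62% at day 16. Results below are given with the trend in place, followed where stated by the value without it.

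**Figure D2:**
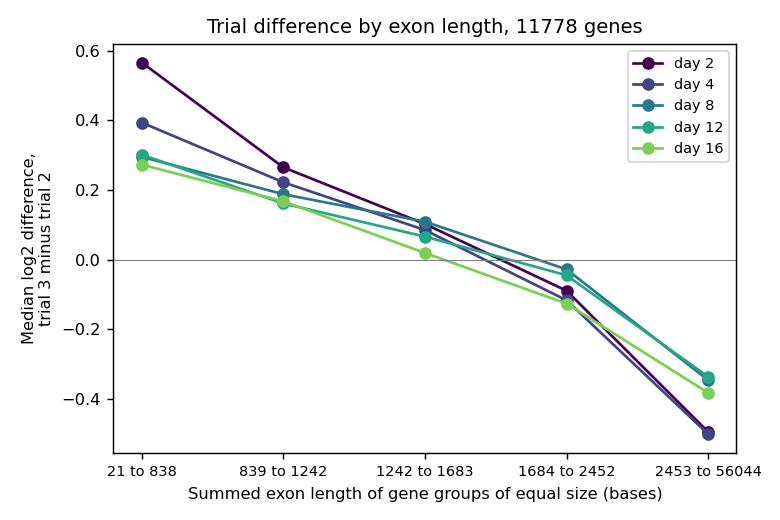
Median log2 difference, trial 3 minus trial 2 (y axis), in 5 equal groups of genes ordered by summed exon length in bases (x axis), with 1 line per age. Every line falls from short to long genes, at day 2 from 0.57 to -0.49 and at day 16 from 0.27 to -0.38.

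Transcripts of the mitochondrial genome were higher in trial 3 throughout. All 12 of 12 protein genes were higher on average, with a median log2 difference of 1.31 (1.009 without the length trend), where 29.5% of all genes were higher and the median of all genes was 0.04. Their number higher at single ages was 12 at day 2, 12 at day 4, 9 at day 8, 10 at day 12 and 10 at day 16, and none was called lower at any age. Together the genes of that genome took 0.510 to 1.16% of counts in trial 2 and 1.36 to 2.47% in trial 3, with no overlap.

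COX1 (WBGene00010964, mitochondrial genome, 7827 to 9428 of WBcel235) encodes the catalytic subunit of cytochrome c oxidase. Its lowest, median and highest CPM were 1961, 2732 and 4265 in trial 2 and 5312, 7039.8 and 10478 in trial 3, so that the 20 libraries of one trial did not overlap those of the other. The log2 difference was 1.31 ± 0.07 (SE; adjusted p = 2.63e-17). COX2 and COX3, its partner subunits, were separated in the same way, with log2 differences of 1.71 ± 0.08 (SE; adjusted p = 1.95e-19) and 1.35 ± 0.06 (SE; adjusted p = 7.98e-21). Such complete separation of 20 from 20 libraries, with trial 3 higher, was found in 0.212% of all genes.

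ATP6 (WBGene00010960, mitochondrial genome, 2634 to 3235), a subunit of the ATP synthase, differed most when worms were young. At day 2 its CPM was 67.8, 85.2, 71.3 and 58.0 in trial 2 and 634, 698, 1026 and 835 in trial 3. At day 16 it was 548, 628, 535 and 748 in trial 2 and 1578, 1504, 1271 and 1433 in trial 3. Trial 2 rose towards trial 3 with age, by 3.13 on the log2 scale against 0.86 in trial 3, yet the trials did not overlap at any age, as held for 1.53% of all genes with trial 3 higher. The trial difference was 3.51 at day 2 and 1.23 at day 16, a change of -2.27 ± 0.37 (SE; adjusted p = 6.27e-05). ND2, a subunit of complex I, moved alike, from 2.06 (adjusted p = 1.62e-07) at day 2 to 0.12 (adjusted p = 0.764) at day 16. ATP6 shares its first bases with the end of ND1, and how reads in such overlaps were counted is not given in the sources used here. Reads at such joints of neighbouring mitochondrial genes therefore cannot be assigned to 1 gene.

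**Figure D3:**
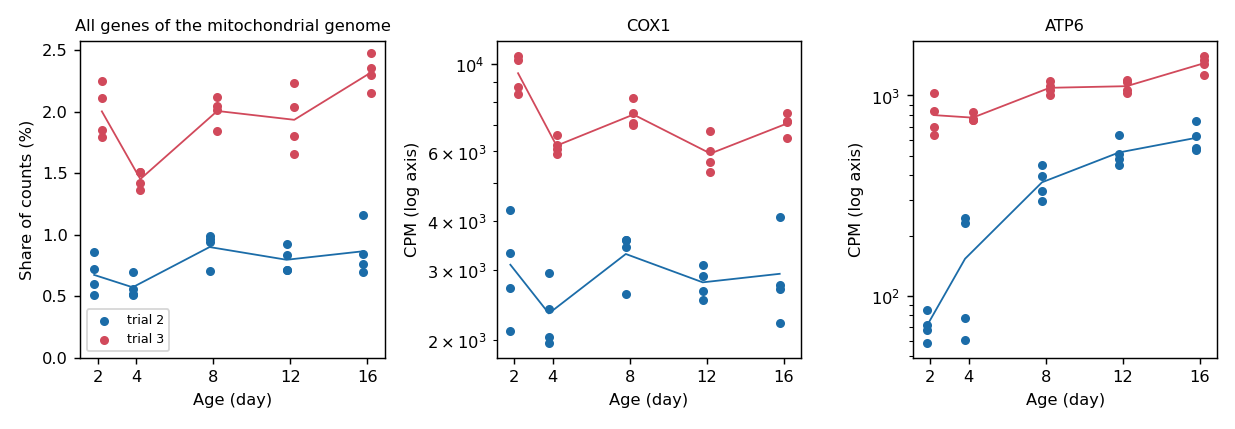
Share of counts from all genes of the mitochondrial genome in percent (left), and CPM of COX1 (centre) and ATP6 (right) on log axes, against age in days. Points are libraries, 4 per trial and age, and lines join the means; blue is trial 2 and red trial 3. The shares run from 0.510 to 1.16% in trial 2 and from 1.36 to 2.47% in trial 3, and the gap in ATP6 is widest at day 2.

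Nuclear genes of the respiratory chain showed a smaller difference, 26 of 42 higher and 6 lower, with a median of 0.27. Of all genes 29.5% were higher and 27.3% lower. Once the trend was removed the list had 15 higher and 10 lower, with a median of 0.03, against 23.2% and 20.1% of all genes. For atp-5, an ATP synthase subunit, the lowest, median and highest CPM were 283, 324 and 377 in trial 2 and 389, 437 and 496 in trial 3, and the trials did not overlap. Its log2 difference was 0.41 ± 0.03 (SE; adjusted p = 3.54e-16), and 0.15 without the trend.

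Some nuclear genes differed several-fold on average, and their age course did not pass the test. ZK354.2 (WBGene00022705, chromosome IV, 5313405 to 5315594) had the largest average difference among the genes named as higher in trial 3. At day 16 its CPM was 1.2, 10.7, 3.42 and 7.47 in trial 2 and 43.8, 36.6, 48.8 and 57.2 in trial 3, so every library of trial 3 was higher, and its average log2 difference was 2.58 ± 0.16 (SE; adjusted p = 2.85e-17). C17C3.5 and C55C3.3 followed, at 2.57 and 2.47. bigr-1 was at 1.87, and clec-210, a C-type lectin, at 1.98 (adjusted p = 0.0317), a call that was lost when 1 of the 40 libraries was left out and without the length trend.

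Several of the genes furthest down in trial 3 were separated at every age. apc-17 (WBGene00007501, chromosome II, 11108128 to 11109583) had a lowest, median and highest CPM of 8.66, 16.17 and 20.7 in trial 2 and 0.657, 2.53 and 6.77 in trial 3. No library of trial 3 reached trial 2, which held for 1.47% of all genes in that direction. Its log2 difference was -2.40 ± 0.16 (SE; adjusted p = 1.11e-17), and its age course did not pass the test (adjusted p = 0.561). W02H5.19 (WBGene00302982, chromosome V, 2638890 to 2639449) was separated in the same way, for example at day 12 with 12, 10.8, 22.7 and 16.8 CPM in trial 2 and 2.63, 3.40, 2.03 and 2.92 in trial 3. Its average log2 difference was -2.2 ± 0.13 (SE; adjusted p = 2.63e-19). scpr-1 (-1.69), Y92H12BR.7 (-1.83) and gap-3 (-1.77), the last a GTPase-activating protein of Ras, also did not overlap between the trials, and of these gap-3 passed the age course test (adjusted p = 0.00378), its difference going from -2 at day 2 to -1.26 at day 16. They are long transcripts, and without the length trend they stood at -1.23, -1.46 and -1.39. For cla-1, an active zone protein of synapses with 27088 exon bases, the difference of -1.86 became -0.64 (adjusted p = 0.00490), and for srap-1 -1.73 became -0.81 (adjusted p = 1.14e-05).

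Cuticle collagens were lower in trial 3. Of 47 tested, 32 were lower on average and none higher, with a median log2 difference of -0.88, where 27.3% of all genes were lower. Without the length trend 33 were lower with a median of -1.07, against 20.1% of all genes. Their medians by age were -0.39 at day 2, -1.11 at day 4, -1.25 at day 8, -0.58 at day 12 and -0.86 at day 16, and 30 were called lower at day 4 against 7 at day 2, where 20.8% and 19.4% of all genes were lower. Without the length trend 31 were lower at day 4 and 12 at day 2, with medians of -1.22 and -0.62. Collagen transcripts fell steeply with age in both trials, by a median of 3.05 from day 2 to day 16 in trial 2 and 3.66 in trial 3.

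col-160 (WBGene00000733, chromosome V, 13200982 to 13202189) had a CPM at day 4 of 56.6, 85.2, 153 and 43.7 in trial 2 and 15.2, 6.97, 9.63 and 10.18 in trial 3. All libraries of trial 3 were below all of trial 2, and the log2 difference was -3.02 ± 0.44 (SE; adjusted p = 1.96e-06). At day 2 it was -1.27, and at day 16, when both trials had fallen to a few CPM, -0.98 (adjusted p = 0.634). col-119 (WBGene00000693, chromosome IV, 8978926 to 8979795) had 1045, 553, 366 and 271 CPM at day 8 in trial 2 and 55.8, 47.9, 57.1 and 162 in trial 3. The groups did not overlap, although 1 library of trial 3 lay well above its 3 partners, and the log2 difference was -2.80 ± 0.44 (SE; adjusted p = 1.61e-05), or -3.40 without that library. col-20 and col-80 changed in their course, with adjusted p of 0.00152 and 0.00425. At day 2 their differences were -0.29 and -0.03, neither past the test, and at day 8 -3.20 and -3.03, both called.

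Other genes of the epidermis and of moulting were also lower. In the embryo and larva list 12 of 14 were lower on average and none higher, with a median of -0.85, where 27.3% of all genes were lower. The widest gap was at day 4 (-1.67). noah-1, a protein of the extracellular matrix laid down at each moult, was at -1.14, nas-37, a protease that opens the old cuticle, at -1.17, and nhr-23, a nuclear receptor of the moulting cycle, at -0.53. Removing the length trend left 8 of the list lower, against 20.1% of all genes. Of the hypodermal markers 4 of 7 were lower and none higher, among them elt-3, a hypodermal GATA factor, at -0.84.

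Day 4 singled out a pair of further genes. wrt-10, a member of a family of secreted proteins related to hedgehog, had 6.49, 26.3, 9.28 and 11.7 CPM at day 4 in trial 2 and 0.845, 1.1, 1.46 and 1.97 in trial 3. The groups did not overlap, and the log2 difference was -3.26 ± 0.49 (SE; adjusted p = 7.65e-07) at that age against -0.19 at day 2 and 0.50 at day 16, neither past the test (age course adjusted p = 5.96e-04). Its day 4 value was -2.70 without replicate 2 of trial 2, its highest library. ser-4, a serotonin receptor, went the other way, with 1.84, 2.16, 2.84 and 3.67 CPM in trial 2 and 16.9, 34.5, 19.9 and 23 in trial 3. Its log2 difference was 3.17 ± 0.34 (SE; adjusted p = 2.03e-10) at day 4 and between 1 and 1.24 at the other 4 ages (age course adjusted p = 0.00216).

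On average over the ages, neuronal markers were more often lower than higher in trial 3. Of 17 neuronal markers 9 were lower and 1 higher, and of 72 neuropeptide genes 24 were lower and 4 higher, where 27.3% of all genes were lower and 29.5% higher. The neuropeptide genes lower were 3 at day 2, 18 at day 4 and 3 at day 8. At day 12 there were 0 and at day 16 there were 5. Of all genes 19.4% were lower at day 2, 20.8% at day 4, 11.6% at day 8, 12.63% at day 12 and 15.2% at day 16. The day 4 count was thus a little above the share of all genes, and those at days 2, 8, 12 and 16 below it. Higher were 3 at day 2, 2 at day 4 and 3 at day 12. These counts were also below the shares of all genes, 21.5%, 19.9% and 11.3%. With the length trend removed 41 neuropeptide genes were lower and 0 higher, against 20.1% and 23.2% of all genes. Then 13 were lower at day 2, 25 at day 4 and 17 at day 16, against 12%, 11.5% and 9.62% of all genes. egl-3 (WBGene00001172, chromosome V, 10169177 to 10173753), the convertase that cuts neuropeptide precursors, had 67.6, 67.9, 70.5 and 58.5 CPM at day 4 in trial 2 and 24.5, 12.5, 19.9 and 18.4 in trial 3. The trials did not overlap at that or any other age, as held for 3.73% of all genes with trial 3 lower, and the average log2 difference was -1.08 ± 0.10 (SE; adjusted p = 2.15e-11). ida-1, a protein of the dense-core vesicles that hold neuropeptides, was at -1.23. The neuropeptide gene nlp-40, which is expressed in the intestine, was higher in trial 3 at day 2 (1.04) and day 4 (1.09) and not called at day 16 (-0.14; adjusted p = 0.639).

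In the germline list, 23 of 34 genes were lower in trial 3 and none higher, with a median of -0.23, where 27.3% of all genes were lower. Without the length trend 18 were lower and 2 higher, against 20.1% and 23.2% of all genes. lin-41, a translational repressor of oocytes, was at -0.95 on average, and glp-1, the Notch receptor of germline stem cells, at -0.72. Both are long and stood at -0.39 and -0.21 without the trend. At day 2, 22 of the list were lower, with a median of -0.38, where 19.4% of all genes were lower. At day 16, 9 were lower and 1 higher, with a median of -0.16, where 15.2% of all genes were lower. The signed change from day 2 to day 16 was higher in trial 3 for 7 of the list and lower for 2. Of all genes 10.3% and 10.4% were. The 2 were the eggshell genes perm-2 and perm-4, which make the permeability barrier of the egg and, unlike the list, diverged late. perm-4 (WBGene00016638, chromosome IV, 1121494 to 1125107) had 5579, 4197, 3375 and 6216 CPM at day 16 in trial 2 and 1109, 977, 973 and 1229.9 in trial 3. Every library of trial 2 was higher. From day 2 to day 16 perm-4 rose by 1.97 on the log2 scale in trial 2, with a change of 0.10 in trial 3 (adjusted p = 0.754), a difference in change of -1.87 ± 0.34 (SE; adjusted p = 2.10e-04). For perm-2 that difference was -2.26 ± 0.33 (SE; adjusted p = 1.08e-05).

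Yolk transcripts fell faster with age in trial 3. The 6 vitellogenin genes had a median log2 difference of -0.05 at day 2, -0.46 at day 8, -1.2 at day 12 and -1.76 at day 16, and 4 of them differed in their age course, where 19.4% of all genes did. vit-6 (WBGene00006930, chromosome IV, 8261157 to 8266459) had 44961, 53190.4, 37932 and 30433 CPM at day 2 in trial 2 and 24224, 31259.5, 39825 and 40569 in trial 3. These groups overlapped and did not differ past the test, with a log2 difference of -0.29 ± 0.25 (SE; adjusted p = 0.383). At day 16 vit-6 had 6194, 3089, 2837 and 2755 CPM in trial 2 and 1266, 1367, 805 and 659 in trial 3, with no overlap and a log2 difference of -1.86 ± 0.26 (SE; adjusted p = 2.99e-06). From day 2 to day 16 it fell by 3.49 in trial 2 and by 5.05 in trial 3. The vitellogenin genes are long, and without the length trend their median was 0.61 at day 2, 0.79 at day 4 and -1.26 at day 16, so that the young ages turned to higher in trial 3 (2 of 6 called at day 2 and 5 at day 4) while day 16 stayed lower. vit-3, vit-4 and vit-5 are near-identical copies, and how reads were shared among them is not given in the sources used here.

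Sperm transcripts differed at 1 age. At day 12, 24 of 26 sperm genes tested were higher in trial 3 and none lower, where 11.3% of all genes were higher. The other sperm markers did not pass the filter on low counts, and those that did could pass through the libraries in which they were high, so the count describes them only. At the other ages none was called in either direction. The summed CPM of the list at day 12 was 19.6 to 25.5 in trial 2 and 74.1 to 311 in trial 3, and at day 16 22.1 to 199 and 32.1 to 124. At day 12 the trials did not overlap, and at day 16 they did. msp-81 (WBGene00003467, chromosome IV, 9836034 to 9836417), a major sperm protein, had no count in trial 2 at day 12 and 1.19, 3.40, 17.7 and 24 CPM in trial 3. Against a floor of 3 counts over the 4 libraries of trial 2, trial 3 was at least 81.2-fold higher, most of its counts lying in 2 of the 4 libraries. Major sperm protein genes are near-identical copies, so their counts cannot be assigned firmly to single genes, and levels of a few CPM rest on few reads.

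The age course differed between the trials for 2287 genes (19.4%), and the change from day 2 to day 16 for 2444 (20.8%). The signed change, day 16 minus day 2, was higher in trial 3 for 1215 of them (10.3%) and lower for 1229 (10.4%). A lower signed change can be a smaller rise or a steeper fall. Of the 6691 genes that differed on average, 5184 did not pass the age course test, and 780 passed that test alone. Several genes of the intestine and of metabolism crossed over, higher in trial 3 in young adults and lower at day 16.

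mtl-2 (WBGene00003474, chromosome V, 14018270 to 14018673) encodes a metallothionein, a small protein of the intestine that binds metals. At day 2 it had 46.5, 29.9, 68.1 and 69.1 CPM in trial 2 and 117, 88.9, 141 and 111 in trial 3, all of trial 3 higher. At day 16 it had 279, 204, 135 and 191 CPM in trial 2 and 33.6, 48.8, 29.1 and 29.9 in trial 3, all of trial 3 lower. mtl-2 rose with age in trial 2, by 1.89, and fell in trial 3, by 1.72, and the changes differed by -3.61 ± 0.39 (SE; adjusted p = 1.73e-07). In the metal response list of 13 genes, 7 differed in their age course, where 19.4% of all genes did. The median difference of the list went from 1.07 at day 2 to -0.40 at day 16, against 0.06 and -0.03 over all genes. ftn-2, a ferritin that stores iron, went from 1.17 to -0.77.

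Enzymes and transporters of peroxisomes, the organelles that shorten very long fatty acids and begin the synthesis of ether lipids, had the same pattern. ads-1 (WBGene00000081, chromosome III, 295654 to 298556), the ether lipid synthase, had 72.6, 60.01, 54.4 and 46 CPM at day 2 in trial 2 and 89.3, 101, 116 and 118 in trial 3. At day 16 ads-1 had 101, 93.3, 74.1 and 73.6 CPM in trial 2 and 37, 49.3, 42.1 and 25.5 in trial 3. The groups were fully separated at both ages, in opposite directions, with log2 differences of 0.87 and -1.15 and a difference in change of -2.03 ± 0.23 (SE; adjusted p = 3.83e-08). The average over ages was -0.02 and was not called (adjusted p = 0.832). pmp-4 (WBGene00004061, chromosome IV, 17402455 to 17405630), a peroxisomal ABC transporter, had 14.6, 15.8, 15.5 and 20.1 CPM at day 2 in trial 2 and 59.0, 64.4, 69.9 and 52.2 in trial 3, all of trial 3 higher. At day 16 pmp-4 had 60.4, 50.6, 29.7 and 46.7 CPM in trial 2 and 26.3, 42.2, 28.4 and 27 in trial 3. These groups overlapped, and the difference of -0.57 (adjusted p = 0.0315) was not called in 6 of 8 fits that left out 1 library of that age, nor without the length trend (-0.41; adjusted p = 0.156). dhs-28 and acox-3, enzymes of peroxisomal beta-oxidation, changed by -1.92 and -2.02 relative to trial 2.

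A list of 34 peroxisomal enzymes, transporters and assembly factors was drawn up after these values had been seen, and 32 were tested. It includes ads-1, pmp-4, dhs-28 and acox-3 named above, so its counts and medians describe the list only. At day 2, 18 were higher in trial 3 and none lower, with a median of 0.74, and at day 16, 1 was higher and 13 lower, with a median of -0.52; over all genes 21.5% were higher at day 2 and 15.2% lower at day 16. From day 2 to day 16 the median change was -0.12 in trial 2 and -1.44 in trial 3. Without the length trend the medians were 0.89 at day 2 and -0.47 at day 16.

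Fatty acid metabolism was close to this. Of 27 genes of the fasting and fatty acid list, 18 were higher and 4 lower in trial 3 at day 2, none was higher and 11 were lower at day 16, and 18 differed in their age course, where 21.5% of all genes were higher at day 2, 15.2% lower at day 16 and 19.4% differed in course. fat-5 (WBGene00001397, chromosome V, 17725004 to 17726818), a desaturase that acts on palmitate, had 10.6, 14.1, 7.17 and 10.1 CPM at day 2 in trial 2 and 53.4, 67.3, 82.1 and 79.8 in trial 3. At day 16 fat-5 had 157, 147, 102 and 204 CPM in trial 2 and 75.5, 84.9, 63.9 and 45 in trial 3. It rose by 3.85 with age in trial 2, and in trial 3 its change was -0.10 (adjusted p = 0.802), a difference of -3.95 ± 0.42 (SE; adjusted p = 1.15e-07). cpt-3, a carnitine palmitoyltransferase, had 0.560, 0.223, 0 and 1.58 CPM at day 2 in trial 2 and 3.19, 5.79, 1.74 and 10.4 in trial 3. At day 16 cpt-3 had 40.1, 47.6, 16.46 and 57.2 CPM in trial 2 and 7.31, 11.7, 11.4 and 9.28 in trial 3, a difference in change of -4.77 ± 0.91 (SE; adjusted p = 3.07e-04). Its day 2 difference of 2.77 was 4.03 without replicate 4 of trial 2, and 1 library of trial 2 had no count. The long biosynthetic genes differed at all ages: fasn-1, the fatty acid synthase, was at -1.61 on average (-0.82 without the length trend), and pod-2, acetyl-CoA carboxylase, at -0.74, which became -0.03 (adjusted p = 0.701).

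Digestive enzymes of the intestine started higher in trial 3 and declined further. Of 52 gut proteases and lysozymes, 35 were higher and 0 lower at day 2, 30 higher at day 4 and 8 at day 8, when 21.5%, 19.9% and 9.97% of all genes were higher, and at day 16, 2 were higher and 13 lower, when 13.4% and 15.2% of all genes were. Once the length trend was removed 21 were higher at day 2, 20 at day 4, 4 at day 8 and 2 at day 16, when 15 were lower. 28 of them differed in their age course, where 19.4% of all genes did. Their median fell by 1.39 from day 2 to day 16 in trial 2 and by 3.43 in trial 3. asp-1 (WBGene00000214, chromosome V, 19049562 to 19050752), an aspartyl protease of the gut, had 701, 759, 549 and 539.8 CPM at day 2 in trial 2 and 698, 919, 1161 and 1118 in trial 3, which overlapped. The log2 difference of 0.61 ± 0.24 (SE; adjusted p = 0.0373) was not called in 5 of 8 fits without 1 library, nor without the length trend (0.44; adjusted p = 0.166). At day 16 asp-1 had 266, 257, 172 and 306 CPM in trial 2 and 66.2, 59.1, 43.8 and 44.1 in trial 3, with no overlap and a log2 difference of -2.24 ± 0.28 (SE; adjusted p = 2.77e-07). cpr-6, a cathepsin B-like protease, went from 0.96 at day 2 to -0.93 at day 16, and lys-8, a lysozyme, from 1.36 to -1.47. The summed CPM of the 19 intestinal markers moved with these genes, at day 2 2354 to 3269 in trial 2 and 3853 to 5852 in trial 3, and at day 16 775 to 1234 and 425 to 647. Its part in the results was not tested.

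**Figure D4:**
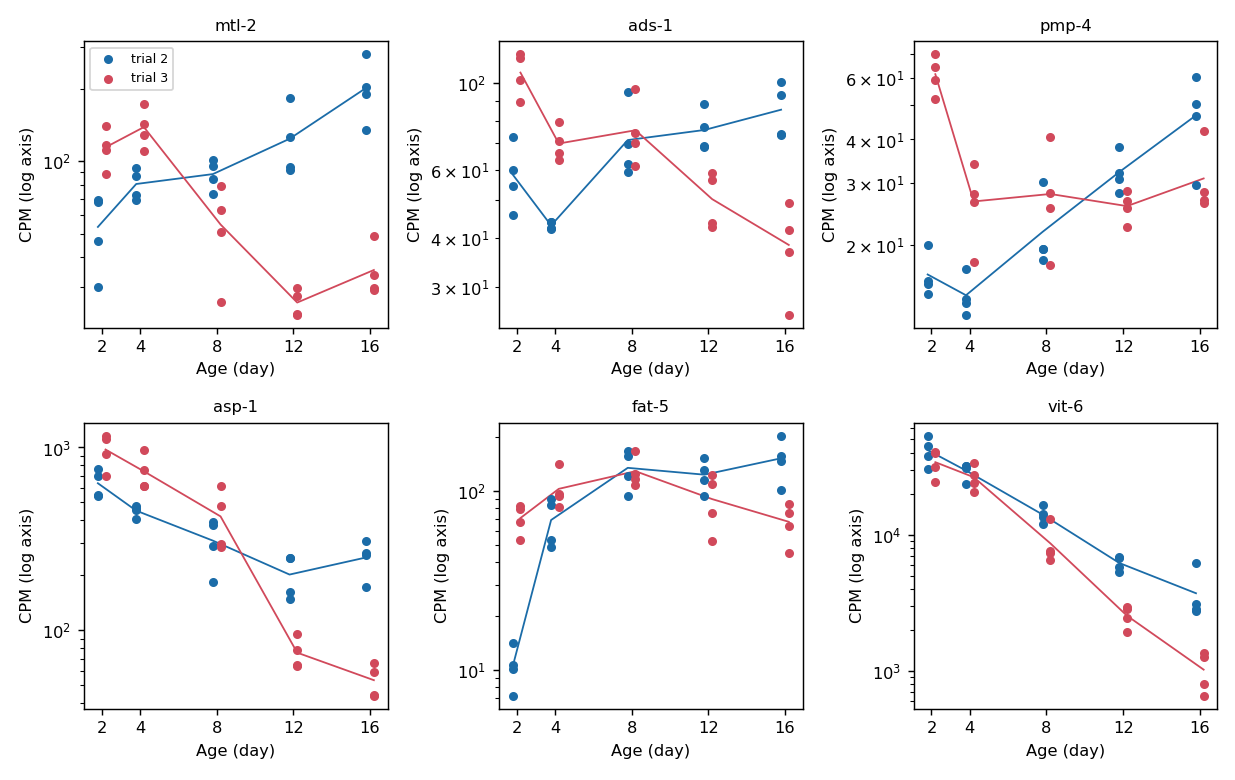
CPM on log axes against age in days for mtl-2, ads-1, pmp-4, asp-1, fat-5 and vit-6. Points are libraries, 4 per trial and age, and lines join the means; blue is trial 2 and red trial 3. For mtl-2, ads-1 and fat-5 trial 3 lies above trial 2 at day 2 and below it at day 16, while vit-6 starts at overlapping levels and is lower in trial 3 at day 16.

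Detoxification and defence genes were counted as higher in trial 3 more often at day 2 than at day 16. At day 2, 15 of 26 glutathione S-transferases, 22 of 50 UDP-glucuronosyltransferases, 18 of 48 cytochrome P450s and 19 of 40 innate immune effectors were higher, against 21.5% of all genes. At day 16 these counts were 3, 0, 2 and 4, against 13.4%. Without the length trend 6 glutathione S-transferases, 25 UDP-glucuronosyltransferases, 17 P450s and 14 immune effectors were higher at day 2, against 14.1% of all genes, and 0, 0, 0 and 2 at day 16, against 9%. cyp-34A9, a P450, had 2.43, 2.23, 1.39 and 4.33 CPM at day 2 in trial 2 and 40.6, 48.3, 46.2 and 68.9 in trial 3. The groups were far apart, with a log2 difference of 4.21 ± 0.41 (SE; adjusted p = 1.46e-10), and by day 16 it was 0.25 (adjusted p = 0.715). cyp-13A5 went from 2.34 to 0.65, ugt-62 from 1.77 to -0.18, and spp-1, an antimicrobial saposin-like peptide, from 2.23 to -0.28, with day 16 not called for any of these. pud-4 had 12.32, 12.9, 6.77 and 14.8 CPM at day 2 in trial 2 and 185, 179, 154 and 170.0 in trial 3, a log2 difference of 3.85 ± 0.35 (SE; adjusted p = 5.14e-10).

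skn-1 (WBGene00004804, chromosome IV, 5651039 to 5660384), the transcription factor that drives many of these detoxification genes, was itself lower in trial 3. Its lowest, median and highest CPM were 305, 368 and 433 in trial 2 and 196, 243 and 286 in trial 3, with no overlap and an average log2 difference of -0.62 ± 0.03 (SE; adjusted p = 1.28e-20), or -0.29 without the length trend. In the list of its targets and of phase II enzymes 5 of 17 were higher and 2 lower on average, a count of higher genes close to the 29.5% of all genes, and without the trend 3 were higher. Among the DAF-16 class I targets, 8 of 18 were higher at day 2 (21.5% of all genes), and at day 16 none was higher and 4 were lower (15.2% of all genes), with 9 different in their course (19.4% of all genes). icl-1, the glyoxylate cycle enzyme, went from 0.94 at day 2 to -2.3 at day 16.

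A few of the genes named for their course went the other way, with a signed change from day 2 to day 16 that was higher in trial 3. swsn-4 (WBGene00004204, chromosome IV, 11126024 to 11131162), the ATPase of the SWI/SNF chromatin remodelling complex, had 689, 769, 703 and 681 CPM at day 2 in trial 2 and 438, 447, 409 and 389 in trial 3. At day 16 swsn-4 had 473, 405, 452 and 519.8 CPM in trial 2 and 579.6, 531, 601 and 581 in trial 3. The groups were separated at both ages, in opposite directions, by log2 differences of -0.76 and 0.31, and the changes differed by 1.07 ± 0.10 (SE; adjusted p = 2.56e-09). thoc-2, a subunit of the complex that hands mRNA to export, went from -0.61 to 0.67, usp-48, a deubiquitinating enzyme, from -0.67 to 0.34, and ceh-100, a homeodomain protein, from -1.29 to -0.18. These transcripts are long. Without the length trend the day 2 differences of swsn-4 and usp-48 were -0.11 and -0.09, neither these nor that of thoc-2 (adjusted p = 0.987) past the test, that of ceh-100 was -0.69, and the differences in change of swsn-4 and usp-48 were 0.93 and 0.86. C33G8.2, a shorter transcript, had 116, 124, 58.5 and 39.5 CPM at day 2 in trial 2 and 45, 46.4, 49.6 and 29.9 in trial 3, which overlapped. At day 16 C33G8.2 had 17.3, 9.66, 13.4 and 16.8 CPM in trial 2 and 61.4, 59.6, 36.4 and 51.1 in trial 3, all of trial 3 higher. It fell by 2.59 with age in trial 2, with a change of 0.26 in trial 3 (adjusted p = 0.437), a difference of 2.85 ± 0.40 (SE; adjusted p = 4.13e-06).

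Late in life a few genes stood far apart. pals-5, a reporter gene of the response to intracellular pathogens, had 4.19, 2.67, 0 and 2.62 CPM at day 16 in trial 2 and 15.1, 27.2, 10.7 and 26.4 in trial 3. The groups did not overlap, and the log2 difference was 3.34 ± 0.75 (SE; adjusted p = 0.00165), or 2.69 without replicate 3 of trial 2. Of 33 genes of that response, 8 were higher in trial 3 at day 16 and 10 at day 8, 0 at day 12, 5 at day 4 and 3 at day 2, with 1 lower at day 2. Over all genes 13.4% were higher at day 16, 9.97% at day 8, 11.3% at day 12, 19.9% at day 4 and 21.5% at day 2. With the length trend removed 7 were higher at day 16 and 5 at day 8. pals-6, of the same family, was at 2.22 at day 16. cpr-2, a cathepsin B-like gene, had 204, 121, 239 and 596 CPM at day 16 in trial 2 and 25.8, 60.5, 14 and 32.2 in trial 3, a log2 difference of -3.16 ± 0.61 (SE; adjusted p = 3.46e-04) and of -2.54 without replicate 4 of trial 2. clx-1 had 109, 16.43, 36.9 and 43.5 CPM at day 12 in trial 2 and 3.11, 6.24, 2.03 and 0.973 in trial 3. Its log2 difference of -4.03 ± 1.17 (SE; adjusted p = 0.0129) was -3.35 without replicate 1 of trial 2, and 1 of 8 fits without 1 library lost the call.

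Heat shock genes were lower in trial 3. Of 14 cytosolic heat shock genes 10 were lower and 2 higher on average, where 27.3% of all genes were lower and 29.5% higher, and 10 and 1 without the length trend. hsp-1 (WBGene00002005, chromosome IV, 17278959 to 17281330), the constitutive Hsp70 of the cytosol, had 2303, 1855, 2254 and 2132 CPM at day 2 in trial 2 and 1589, 1177, 1123 and 1190.2 in trial 3. Over all ages its trials did not overlap, and the log2 difference was -0.61 ± 0.04 (SE; adjusted p = 6.57e-17). The inducible small heat shock gene hsp-16.2 had 5.23, 0.446, 0.398 and 0.394 CPM at day 2 in trial 2 and 0, 0.322, 0 and 0.475 in trial 3. Its log2 difference of -3.06 ± 1.12 (SE; adjusted p = 0.0264) came to -1.17 (adjusted p = 0.462) without replicate 1 of trial 2, the single high library.

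Muscle, ribosomal, proteasomal and histone genes gave other counts once the length trend was removed. Of 26 muscle genes 5 were higher and 7 lower, shares at or below the 29.5% and 27.3% of all genes. Without the trend 10 were higher and 6 lower, against 23.2% and 20.1% of all genes. unc-54, the main myosin heavy chain of body wall muscle, had 67.6, 53.6, 82.2 and 60.5 CPM at day 16 in trial 2 and 21.9, 16.9, 23.4 and 16.25 in trial 3, and averaged -1.21 over the ages, or -0.54 without the trend. unc-89, a giant protein of the sarcomere with 25942 exon bases, turned from -0.99 to 0.22 (adjusted p = 0.0121). The ribosomal protein genes, which are short, went from 41 higher and 15 lower of 79 to 13 higher and 55 lower, their median from 0.13 to -0.22. For the proteasome the counts went from 16 higher and 7 lower of 33 to 10 and 10. Of 30 core histone genes 24 were higher and 2 lower, with a median of 0.76, and 10 and 4, with a median of 0.34, without the trend. Histone genes lie in many near-identical copies, so their single counts are uncertain.

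**Figure D5:**
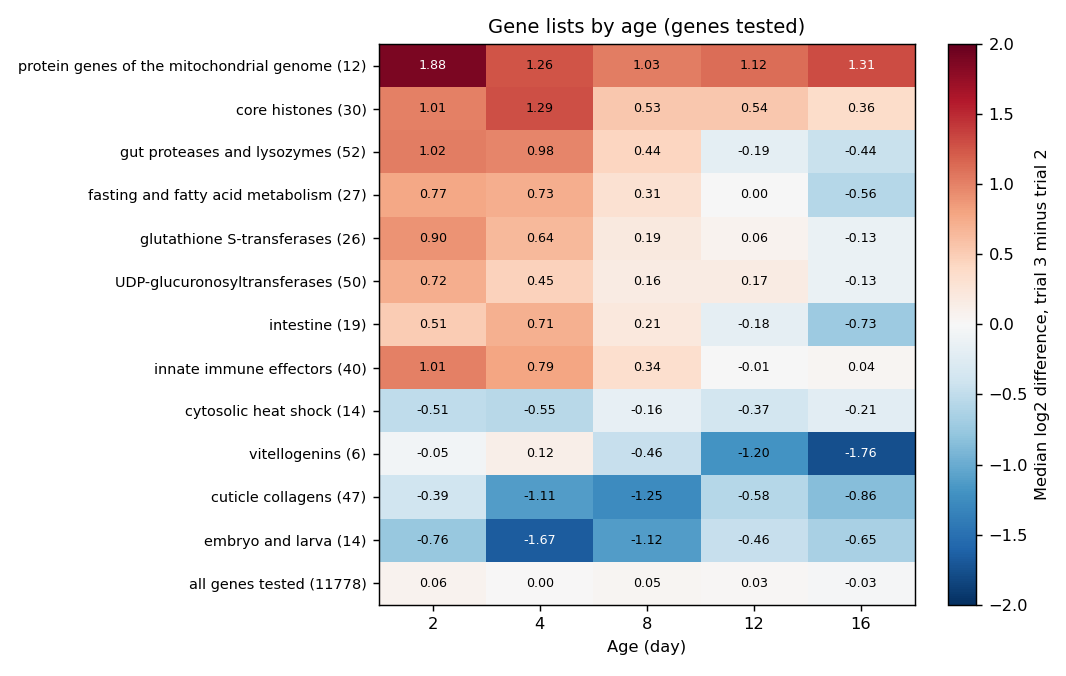
Median log2 difference, trial 3 minus trial 2, of 12 gene lists and of all genes tested (rows, with the number of genes tested) at each age in days (columns); red is higher in trial 3 and blue lower. The mitochondrial genome stays between 1.03 and 1.88, collagens stay below 0, and the gut, fatty acid and intestinal lists go from above 0 at day 2 to below 0 at day 16.

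The courses of ageing were broadly shared. From day 2 to day 16, 6643 genes changed in trial 2 (56.4%) and 6027 in trial 3 (51.2%). In trial 2, 3394 rose (28.8%) and in trial 3 3117 (26.5%), and 1964 rose in both, 57.9% of the first list and 63.0% of the second. Of 3249 (27.6%) and 2910 (24.7%) genes that fell, 1921 fell in both (59.1% and 66.0%), and 263 genes changed in opposite directions. The trials share no library in this comparison. Across the 11778 genes, which are not independent replicates, the 2 sets of changes had a Pearson r of 0.85 and a Spearman rho of 0.72.

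Genes that change with age were also taken from 20 DMSO libraries of N2 outside both trials, as those with a slope per day past the same threshold. Of 1701 such falling genes tested here, the median trial difference was 0.32 at day 2, 0.28 at day 4, 0.13 at day 8, 0.08 at day 12 and -0.07 at day 16, against 0.06 to -0.03 over all genes. These genes fell by a median of 0.90 from day 2 to day 16 in trial 2 and 1.3 in trial 3. Of 2283 rising genes, the median difference was -0.13 at day 2, -0.33 at day 4 and -0.02 at day 16, with rises of 1.04 and 0.98. Without the length trend falling genes had a median difference of 0.17 at day 2 and -0.11 at day 16, and rising genes -0.04 at day 2, -0.16 at day 4 and 0.04 at day 16.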

How the data were processed

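Whole-worm mRNA libraries were made with a quarter-volume KAPA mRNA HyperPrep protocol, per the labels' protocols. The deposited table holds whole-number read counts per gene, not normalized; per the submitters' processing notes, featureCounts of Subread 2.0.2 and the genome build WBcel235 were used. The aligner, annotation release and strand setting behind it are not given in the sources used here. Of 46926 genes, the 11778 that passed filterByExpr were tested with edgeR 4.0.16 (R 4.3.3; TMM scaling, robust quasi-likelihood F tests), with 1 term per trial and age (4 libraries each, 30 residual degrees of freedom) and p-values adjusted by Benjamini-Hochberg over all genes tested. Differences are trial 3 minus trial 2; CPM are counts per 1000000 of TMM-scaled library size. The age course was tested with a 4-degree F test, and the change from day 2 to day 16 with a contrast. Replicate numbers did not pair libraries across trials and were not blocked. Age genes outside the trials came from 20 DMSO libraries of a second deposited table of counts; 20 sulforaphane libraries there were not used. Gene symbols came from Ensembl and RefSeq annotation. Named genes were those with the largest average or single-age differences, the smallest age course p, and the leading members of 37 lists, with a mean of at least 5 CPM outside the lists; the members and the lists were chosen with earlier results of these data known. Alternatives included DESeq2 1.42.0, limma 3.58.1, an additive model, other filters, and leaving out each of 40 libraries. The fit was tested on simulated data.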

Additional observations from a re-analysis of the deposited data

Results flagged for a closer look

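In 8 of 148 groups of 4 libraries checked, 1 library stood apart from its 3 partners. The limit used would flag about 1 in 20 groups of independent normal values. These groups share libraries, so that rate cannot be set against the 8 found. Why these libraries stood apart was not tested. At day 8 in trial 3, col-119 was at 162 CPM in 1 library and 47.9 to 57.1 in the others. At day 16 in trial 3, pmp-4 was at 42.2 CPM against 26.3 to 28.4. At day 16 in trial 2, vit-6 was at 6190 CPM against 2750 to 3090, and the share of all vitellogenins in the counts at 1.5% against 0.661 to 0.725%. That share stood at 4.92% in 1 library of trial 3 at day 8, against 2.64 to 2.84%. hsp-16.2 was at 5.23 CPM in 1 library of trial 2 at day 2, against 0.394 to 0.446, and hsp-1 at 1590 CPM in 1 library of trial 3 at day 2, against 1120 to 1190. The mitochondrial genome took 0.702% of counts in 1 library of trial 2 at day 8, and 0.942 to 0.989% in the others.

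The age course differed between the trials for 2287 genes. By the interaction contrast of the edgeR model, the signed change from day 2 to day 16 was lower in trial 3 for the genes that follow. The differences in log2 change were -2.27 for ATP6, -3.61 for mtl-2, -2.03 for ads-1 and -2.47 for pmp-4. They were -2.86 for asp-1, -3.95 for fat-5, -4.77 for cpt-3 and -1.57 for vit-6. The signed change was higher in trial 3 by 2.85 for C33G8.2 and by 1.07 for swsn-4.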

How the results depend on the processing

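With the length trend of each library removed, which was chosen after the data were seen, the genes called fell to 3074 at day 2, 3038 at day 4, 1116 at day 8, 1500 at day 12 and 2193 at day 16, and those with another age course to 1909. Among values of single named genes, that setting changed the sign of 6, ended the call of 25 more and left the status of 210 unchanged. Of the 6, the called average differences of unc-89 (0.22) and drh-1 (0.17) were reversed. Those of trxr-1 (0.0348), lonp-1 (0.0354), spg-7 (0.0250) and metr-1 (0.0146) lost the call at values near 0, with adjusted p of 0.408, 0.577, 0.685 and 0.834. Day 8 fitted on its own 8 libraries gave 1617 genes of 9480 tested; the cause was not tested. The cause of the length trend was not tested. Leaving out 1 of the 40 libraries gave 6594 to 6768 genes on average, 4264 to 4577 at day 2, 4071 to 4528 at day 4, 2022 to 2655 at day 8, 2335 to 2771 at day 12, 2523 to 3560 at day 16, 1837 to 2759 for the age course and 1846 to 2871 for the change from day 2 to day 16; age alone gave 6006 to 6838 in trial 2 and 5474 to 5858 in trial 3. With the replicate number as a block, 6691 genes differed on average and 2305 in their course; libraries of the same number in the other trial had a mean correlation of -0.014, so the numbers do not pair them. Among values of single named genes, leaving out 1 library left the status unchanged in 8298 cases, which include values called in neither fit. It ended the call in 129 cases and added it in 13. The remaining counts stayed within 1.5 times the reported ones under the other settings run, among them nuclear protein-coding genes alone, also chosen after the data were seen. Depth limits genes of a few CPM, since the smallest library holds 1071727 counts.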
